A study of Homo sapiens with 4 samples.

Results

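The 10 genes described here are the suppressor of cytokine signalling family (SOCS1 to SOCS7 and CISH) and the phosphatase genes PTPN1 and PTPN2, which encode negative regulators of signalling through JAK kinases and STAT transcription factors. They were chosen by symbol, and all 10 were found among the 58812 genes listed in the count files and among the 19814 genes with enough counts to test. RNA was sequenced from A549, a human lung carcinoma epithelial line, 24 hr after transfection with 1 µg of a plasmid for SAMD9 carrying a Myc-DDK tag (SAMD9, n = 2 libraries) or of the empty plasmid pCMV6-Entry (empty vector, n = 2 libraries). SAMD9 is an interferon-inducible antiviral protein, and the design compares the transcriptome with and without its overexpression. Both groups are wild type A549 cells that took up plasmid DNA, and both come from 1 cell line. Nothing in the labels tells whether the replicates were grown and transfected apart. The p-values therefore reflect only how much these libraries vary, which may be technical.

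Cytokines and interferons bind receptors that activate JAK kinases, which phosphorylate the receptor and the STAT proteins that then enter the nucleus. SOCS proteins bind phosphotyrosines through an SH2 domain and, through the C-terminal SOCS box, recruit elongins and a cullin ubiquitin ligase. SOCS1 and SOCS3 also carry a short region that inhibits JAK kinases directly, and both genes, like CISH and SOCS2, are known as transcriptional targets of STATs, so that the pathway limits itself. PTPN1 and PTPN2 encode tyrosine phosphatases that remove phosphate from JAKs and STATs. In bulk RNA, a lower level in every cell and a loss in some of the cells cannot be told apart.

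Promoter sequence is shown for SOCS1, whose RNA changed most, and for CISH, whose upstream window held the most matches to a STAT motif. RefSeq windows (GRCh38.p14, the 250 bases before a listed transcript start) were given for CISH, PTPN1, PTPN2, SOCS1, SOCS3, SOCS4 and SOCS6, with 2 starts for SOCS3, and were not given for SOCS2, SOCS5 and SOCS7. They were searched on both strands for the GAS letters bound by STAT dimers, TTCNNNGAA, and for the ISRE letters bound by interferon-activated complexes (GAAA, any 2 bases, GAAA). The SOCS1 window lies on the minus strand at chr16:11256205-11256454 and is written from 5′ to 3′ with its ISRE match in capitals.
SOCS1: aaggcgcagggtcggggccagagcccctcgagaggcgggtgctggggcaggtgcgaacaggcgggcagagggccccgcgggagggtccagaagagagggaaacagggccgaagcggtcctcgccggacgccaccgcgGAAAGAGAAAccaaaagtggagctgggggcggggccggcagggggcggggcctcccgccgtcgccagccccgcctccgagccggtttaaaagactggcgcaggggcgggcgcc
That match began 113 bases before the RefSeq start, and the window held no GAS match. The CISH window held 4 GAS matches and no ISRE match. These are shown in capitals in a pair of short stretches of the minus strand, the first at chr3:50611991-50612020 and the second at chr3:50611876-50611905.
CISH first stretch: ccgttTTCCTGGAAagTTCTTGGAAatctg
CISH second stretch: ggTTCTAGGAAgacgctgcTTCCGGGAAgg

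Of 35116 promoter windows in the RefSeq table, 3.02% held an ISRE match and 6.57% a GAS match, and 5 windows (0.0142%) held 4 or more GAS matches. The other 6 windows of these genes held neither. For SOCS3 the listed starts lay 848 bases before and 410 bases after the gene start in the count files, and for PTPN2 88681 bases after it, so the sequence just before those gene starts was not searched. The motif matches are descriptions of these letters only, and the expression values below were not used to find them.

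With SAMD9, RNA of SOCS1 and SOCS3 rose, RNA of SOCS4, SOCS5, SOCS6 and SOCS7 fell, and SOCS2, CISH, PTPN1 and PTPN2 did not pass the test. Counts were compared with edgeR's quasi-likelihood test, with Benjamini-Hochberg adjustment over all genes tested and a call at an adjusted p below 0.05. By that rule 2 of the 10 genes were called higher, against 15.3% of all genes tested, and 4 of the 10 lower, against 12.2%. A call in either direction was made for 27.5% of genes tested. The median log2 fold change of the 10 genes was -0.03, and that of all genes tested was -0.01. Both SAMD9 libraries lay above both empty vector libraries for 4 of the genes (31.1% of all genes tested did so) and below them for 4 (30.9%).

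Library totals ranged from 29301854 to 39670083 counts, and 1 count was worth 0.0252 to 0.0341 CPM. SAMD9 itself reached 5903 and 6439 CPM in the SAMD9 libraries, against 14.2 and 11.95 CPM in the empty vector libraries, so both groups matched their labels. Levels are CPM (counts scaled to library size) after TMM scaling unless stated otherwise. The summed level of 10 lung epithelial markers was 8108 and 7900.04 CPM with SAMD9 and 6282 and 7086 CPM with empty vector, nearly all of it KRT8, KRT18 and KRT7. EPCAM and CLDN4 were at 3.71 to 6.90 CPM in all 4 libraries, and KRT19 and the alveolar markers SFTPB, SFTPC and NKX2-1 were near 0, with 0 to 38 counts. Among these 10 markers, CDH1 (log2 fold change 0.89) and KRT8 (0.40) were called higher with SAMD9. The summed level of 10 leukocyte markers was 7.45 and 7.20 CPM with SAMD9 and 6.71 and 6.25 CPM with empty vector, with the defining marker PTPRC at 0 and 3 counts with SAMD9 and 0 and 0 with empty vector. The summed level of 8 fibroblast markers was 6.54 and 6.53 CPM with SAMD9 and 1.85 and 2.99 CPM with empty vector, while DCN had no count in any library. Of that sum, COL1A1 gave 5.20 and 5.59 CPM with SAMD9 and 1.44 and 2.09 CPM with empty vector. The part of these markers in the results below was not tested. The summed level of 7 endothelial markers was 1.37 and 1.22 CPM with SAMD9 and 1.76 and 1.28 CPM with empty vector.

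SOCS1 (ENSG00000185338, chromosome 16, 11254405 to 11256179, minus strand, GRCh38) encodes the inhibitor that acts on interferon receptors and their JAKs. It had 2546 and 1680 counts in the SAMD9 libraries and 34 and 44 counts in the empty vector libraries. Its level was 68.3 and 58.7 CPM with SAMD9, against 1.09 and 1.31 CPM with empty vector. Both SAMD9 libraries stood far above both empty vector libraries, and the replicates of each group lay close together. The means were 63.5 ± 6.78 CPM with SAMD9 and 1.20 ± 0.161 CPM with empty vector (SD, n = 2 each), which is 52.6-fold higher with SAMD9 (log2 fold change 5.72, SE 0.15, edgeR adjusted p = 7.2e-19).

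SOCS3 (ENSG00000184557, chromosome 17, 78356778 to 78360077, minus strand) encodes the inhibitor that binds gp130, the shared receptor chain of the interleukin-6 family. It had 126 and 122 CPM in the SAMD9 libraries, against 14.6 and 16.9 CPM in the empty vector libraries. The gap between the groups was many times the spread within either of them. SOCS3 was 7.88-fold higher with SAMD9 (log2 fold change 2.98, SE 0.09, edgeR adjusted p = 6.5e-18). Across the 4 possible pairings of a SAMD9 with an empty vector library, the log2 ratio lay between 2.86 and 3.11 for SOCS3 and between 5.48 and 5.97 for SOCS1.

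Of the genes tested within 100 kb, 1 of 4 was called beside SOCS1, 1 of 3 beside SOCS3, 4 of 4 beside SOCS4 (2 higher, 2 lower) and 2 of 5 beside PTPN2 (both lower), where 27.5% of all genes tested were called. Beside SOCS2, 1 was higher and 1 lower of 4 tested, beside SOCS6 1 was lower of 3, beside SOCS7 1 was higher of 4 and beside CISH 1 was lower of 6. None was called beside SOCS5 (3 tested) or PTPN1 (2 tested). With so few neighbours per gene, these counts are too small to set a rate against that of all genes. RMI2, a subunit gene of the BLM helicase complex, runs across SOCS1 on the opposite strand without sharing exonic bases with it. RMI2 had 35.3 and 37.9 CPM with SAMD9 and 16.5 and 20.5 CPM with empty vector (log2 fold change 0.98, SE 0.11, edgeR adjusted p = 3.1e-07). RMI2 was the gene called beside SOCS1. The non-coding SOCS3-DT, which starts next to SOCS3 and is transcribed away from it, had 49 and 40 counts with SAMD9 and 2 and 2 counts with empty vector. Scaled to total counts, SAMD9 had 19.2 times as many (95% counting interval 7.24 to 72.0), and edgeR called it higher (adjusted p = 6.0e-05). The other 2 genes tested within 100 kb of SOCS3, PGS1 and DNAH17, were not called.

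**Figure D1:**
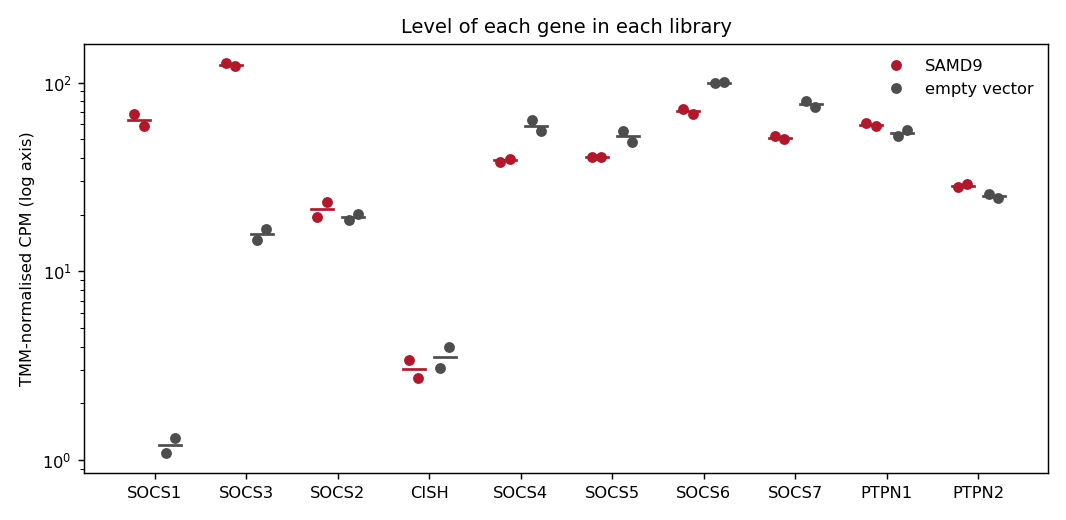
Level of the 10 genes in each library, as TMM-normalised CPM on a log axis; dots are libraries, bars are means of n = 2, red is SAMD9 and grey is empty vector. SOCS1 and SOCS3 stand far above empty vector (63.5 against 1.20 CPM and 124 against 15.7 CPM), and SOCS4 to SOCS7 stand below it without overlap.

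SOCS4 to SOCS7 are the family members with long N-terminal regions, and all 4 fell by less than 1 on the log2 scale. SOCS4 (ENSG00000180008, chromosome 14, 55027230 to 55049488), linked like SOCS5 to turnover of the EGF receptor, had 38.1 and 39.5 CPM with SAMD9, against 63.0 and 55.4 CPM with empty vector. SOCS4 fell by 0.61 on the log2 scale (SE 0.09, edgeR adjusted p = 7.8e-06), and its groups did not overlap. SOCS5 (ENSG00000171150, chromosome 2, 46698952 to 46763129) had 40.5 and 40.1 CPM with SAMD9, against 55.4 and 48.6 CPM with empty vector. It showed the smallest of the 4 falls, 0.37 on the log2 scale (SE 0.09, edgeR adjusted p = 0.0025).

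SOCS6 (ENSG00000170677, chromosome 18, 70288901 to 70330200) encodes a protein that binds the receptor tyrosine kinase KIT and insulin receptor substrates. It had 72.2 and 68.5 CPM with SAMD9, against 99.1 and 100.5 CPM with empty vector. The fall was 0.50 on the log2 scale (SE 0.07, edgeR adjusted p = 6.3e-06), and the groups did not overlap. SOCS7 (ENSG00000274211, chromosome 17, 38352228 to 38405593), whose product also binds insulin receptor substrates, had 51.9 and 50.4 CPM with SAMD9, against 80.2 and 74.0 CPM with empty vector. SOCS7 fell by 0.59 on the log2 scale (SE 0.08, edgeR adjusted p = 2.5e-06). The 95% intervals of these 4 log2 fold changes ran from -0.79 to -0.43 for SOCS4, -0.55 to -0.19 for SOCS5, -0.65 to -0.36 for SOCS6 and -0.75 to -0.43 for SOCS7, so they overlapped one another.

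SOCS2 and CISH, whose products act on growth hormone, prolactin and other receptors that signal through STAT5, were not called. SOCS2 (ENSG00000120833, chromosome 12, 93569814 to 93583487) had 19.5 and 23.3 CPM with SAMD9, against 18.8 and 20.02 CPM with empty vector. The groups overlapped, and the log2 fold change was 0.14 with a 95% interval from -0.10 to 0.38 (edgeR adjusted p = 0.43). CISH (ENSG00000114737, chromosome 3, 50606490 to 50611831), the gene with 4 GAS matches in the stretches shown above, had 3.38 and 2.72 CPM with SAMD9, against 3.07 and 3.97 CPM with empty vector. Its groups overlapped too. With only 78 to 133 counts per library the CISH interval was wide, from -0.73 to 0.32 around -0.20 (edgeR adjusted p = 0.62), which leaves out a rise as large as that of SOCS3 or SOCS1. STAT5A, which encodes a STAT that acts on CISH, rose to 14.0 ± 0.830 CPM with SAMD9, against 4.86 ± 0.315 CPM with empty vector (SD, n = 2 each), whereas STAT5B had a log2 fold change of -0.16 (edgeR adjusted p = 0.11).

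The phosphatase genes were not called either. PTPN1 (ENSG00000196396, chromosome 20, 50510321 to 50584762), which encodes PTP1B, a phosphatase of JAK2, TYK2 and the insulin receptor, had 61.0 and 58.8 CPM with SAMD9, against 52.0 and 56.4 CPM with empty vector. PTPN2 (ENSG00000175354, chromosome 18, 12785478 to 12929643), which encodes the T cell phosphatase that acts on JAK1, had 27.8 and 28.9 CPM with SAMD9, against 25.7 and 24.4 CPM with empty vector. For both genes each SAMD9 library lay above each empty vector library, as it did for 31.1% of genes tested. The log2 fold changes were 0.15 (95% interval -0.02 to 0.31, edgeR adjusted p = 0.19) for PTPN1 and 0.18 (-0.03 to 0.39, adjusted p = 0.21) for PTPN2. Under total-count scaling SOCS2, PTPN1 and PTPN2 took the other sign, at -0.05, -0.04 and -0.01. That scaling moved the median of all genes to -0.19, and no call on any of the 10 genes changed with it.

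**Figure D2:**
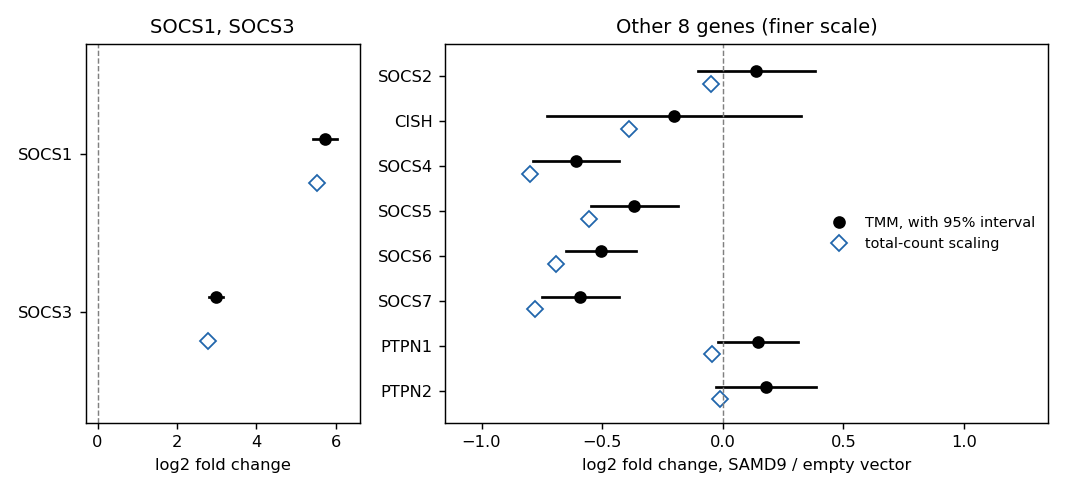
Log2 fold change of each gene, SAMD9 over empty vector, with 95% intervals under TMM scaling (black) and the value under total-count scaling (open diamonds). SOCS1 (5.72) and SOCS3 (2.98) are on a scale of their own at left; at right, the intervals of SOCS4 to SOCS7 stay below 0, and those of SOCS2, CISH, PTPN1 and PTPN2 cross it.

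To compare levels between genes, they were expressed per kilobase of the exonic length listed in the files. With SAMD9 the order by CPM per kilobase was SOCS1 (51.8 ± 5.54), SOCS3 (45.4 ± 1.06), PTPN1 (16.8 ± 0.434), SOCS6 (11.8 ± 0.447), SOCS5 (8.01 ± 0.0504), SOCS7 (5.94 ± 0.121), SOCS4 (5.51 ± 0.141), PTPN2 (4.10 ± 0.107), SOCS2 (3.16 ± 0.398) and CISH (0.597 ± 0.0905), as mean ± SD of 2 libraries, and no neighbours in that order overlapped between libraries. With empty vector SOCS6 came first (16.7 ± 0.170), followed by PTPN1 (15.2 ± 0.871), SOCS5 (10.3 ± 0.952), SOCS7 (8.94 ± 0.502), SOCS4 (8.41 ± 0.760), SOCS3 (5.76 ± 0.573), PTPN2 (3.62 ± 0.141), SOCS2 (2.86 ± 0.128), SOCS1 (0.980 ± 0.132) and CISH (0.689 ± 0.125). In that group only SOCS7 and SOCS4 overlapped. With these lengths SOCS1 was next to last with empty vector and first with SAMD9, and CISH was last in both groups.

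The 8 genes whose products carry a SOCS box summed to 137 and 127 CPM per kilobase with SAMD9, against 55.4 and 53.9 CPM per kilobase with empty vector. SOCS1 and SOCS3 made up 74.4% and 72.6% of that sum with SAMD9, against 11.3% and 13.4% with empty vector. SOCS4 to SOCS7 made up 23.0% and 24.2% with SAMD9, against 82.7% and 79.6% with empty vector. Their own sum was 31.6 and 30.9 CPM per kilobase with SAMD9, against 45.8 and 42.9 CPM per kilobase with empty vector. The groups did not overlap in any of these shares or sums.

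**Figure D3:**
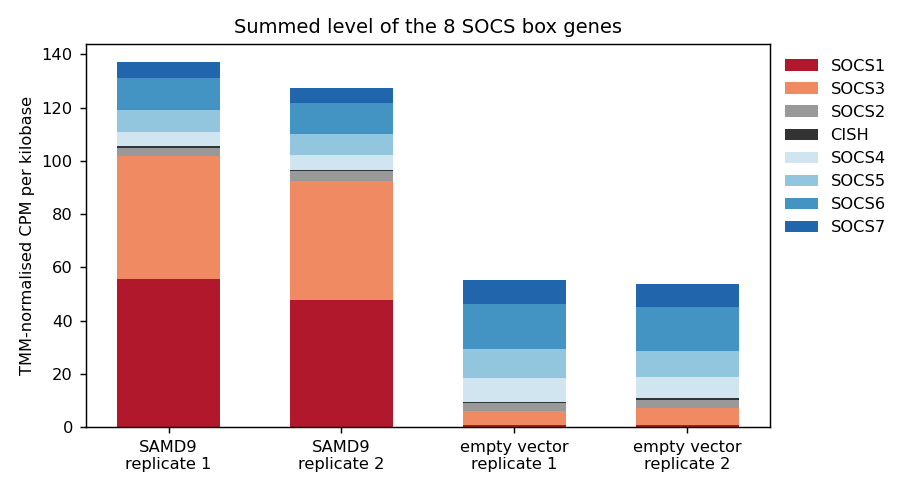
Level of the 8 SOCS box genes in each library, stacked as TMM-normalised CPM per kilobase of listed exonic length. The bars reach 137 and 127 with SAMD9 and 55.4 and 53.9 with empty vector, and SOCS1 (red) and SOCS3 (orange), at the base, fill most of the SAMD9 bars.

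The level of SOCS1 relative to SOCS3, per kilobase, was 1.21 and 1.07 in the SAMD9 libraries, against 0.166 and 0.174 in the empty vector libraries. The groups did not overlap, but 2 libraries against 2 cannot give an exact two-sided permutation p below 0.333. The files list 1225 exonic bases for SOCS1, whereas its longest coding transcript in GENCODE release 29 has 1784. With transcript lengths from GENCODE in place of the listed ones, a choice made after seeing the data, the mean ratio was 0.783 with SAMD9 and 0.117 with empty vector. SOCS3 then came before SOCS1 with SAMD9. CISH, with 2167 transcript bases in place of 5112 listed ones, was at 1.41 CPM per kilobase with SAMD9 and 1.62 with empty vector, where SOCS1 took the last place at 0.673. The order therefore depends on the length used, for SOCS1, SOCS3 and CISH and also for PTPN2, which came before SOCS7 and SOCS4 with SAMD9 and before SOCS3 with empty vector. SOCS2 also came just before SOCS4 with SAMD9 (means 5.74 and 5.73 CPM per kilobase), though their libraries overlapped.

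The genes that rose are short and those that fell are long. SOCS1 spans 1775 bases and SOCS3 spans 3300, and the longest coding transcript has a GC content of 69.1% for SOCS1 and 60% for SOCS3. SOCS4, SOCS5 and SOCS6 span 22259, 64178 and 41300 bases, and the GC content of the longest coding transcript is 35.3%, 37.5% and 38.0%. SOCS7 spans 53366 bases with 52.1% GC. Of the genes not called, CISH (5342 bases, 58.6% GC) and SOCS2 (13674 bases, 47.3% GC) are shorter than the 4 genes that fell. PTPN1 (74442 bases, 49.3% GC) and PTPN2 (144166 bases, 39.8% GC) are longer than those 4. Among 2041 protein-coding genes tested with a GC content below 40%, 17.1% were called higher and 19.5% lower, with a median log2 fold change of -0.06. SOCS3, just under 60% before rounding, SOCS7 and CISH belong to 4410 genes from 50% to below 60%. Of those, 20.4% were called higher and 13.3% lower, and the median was 0.02. Among 2384 genes at 60% or more, which include SOCS1, 15.5% were called higher and 14.6% lower, and the median was -0.02. The part of GC content or length in the values of SOCS4 to SOCS7 was not tested.

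Sequence shared with other genes was limited. Of transcript 31-mers, 11.5% for PTPN2 and 9.79% for SOCS5 also occurred in transcripts of other genes, with 4.32% shared with PTPN2P1 and 4.34% with SOCS5P3, and for SOCS1 none did. These are shares of sequence and not of counts, and how far the sharing affects the values of PTPN2 and SOCS5 was not tested. The pseudogene SOCS5P3 had 24 and 16 counts with SAMD9 and 26 and 18 counts with empty vector, and PTPN2P1 had 20 and 18 counts with SAMD9 and 6 and 4 counts with empty vector. CISH shares 218 exonic bases (4.26% of its exons) with MAPKAPK3 on the opposite strand, and SOCS2 shares 277 (4.09%) with SOCS2-AS1. MAPKAPK3 had a log2 fold change of -0.25 (edgeR adjusted p = 0.023) and SOCS2-AS1 of -0.07 (adjusted p = 0.89). The strand setting of the counting is not given in the sources used here, so reads in these stretches cannot be assigned to a strand.

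For the 3 genes with the lowest p, the genes with the most similar profile over the 4 libraries were found by Euclidean distance between log2 CPM values, each centred on its own empty vector mean, among 12958 other genes. Nearest to SOCS1 were IFI16, RASGRP3 and APOL1 (distances 0.237, 0.255 and 0.310), with log2 fold changes of 5.32, 5.55 and 5.46. Nearest to SOCS3 were TRIM38, TRIM14 and PRRG4 (0.0700, 0.0724 and 0.0831), with log2 fold changes of 3.0, 2.94 and 3.28. Nearest to SOCS7 were PTAR1, PREPL and WDR35 (0.0208, 0.0238 and 0.0319), with log2 fold changes of -0.58, -0.58 and -0.60. With 4 libraries in 2 groups these distances mostly reflect the size of the fold change.

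The other parts of the pathway were described with 7 further lists, beside the background of 15.3% called higher and 12.2% called lower. Genes of the ubiquitin ligase that the SOCS box recruits moved little: of 10 tested, 1 was called higher (CUL2, log2 fold change 0.26, SE 0.08, edgeR adjusted p = 0.016) and none lower, with a median of 0.03. The rise of CUL2 was lost under total-count scaling and without either SAMD9 library, and 3 of the 10 were lower under that scaling. The adaptors ELOB and ELOC, which link the SOCS box to the cullin, had log2 fold changes of 0.04 and 0.02.

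Of 15 other JAK-STAT inhibitors tested, 3 were higher and 4 lower, with a median of -0.05. USP18, which blocks the type I interferon receptor and removes ISG15, had 262 ± 9.83 CPM with SAMD9 and 10.7 ± 0.103 CPM with empty vector (SD, n = 2 each; log2 fold change 4.61, SE 0.08). The adaptor SH2B3 rose by 0.78 (SE 0.12) and the receptor phosphatase PTPRK by 0.40 (SE 0.08) on the log2 scale. PTPN11, which encodes the phosphatase SHP2, fell by 0.36 (SE 0.06) on the log2 scale. The falls in this list numbered 2 without SAMD9 replicate 1 and 7 under total-count scaling. The haematopoietic phosphatase PTPRC had too few counts to test.

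The kinases and STATs that SOCS proteins restrain had 6 of 11 genes higher and 1 lower (median 0.89), and the lower one, JAK1 at -0.26, was not called without SAMD9 replicate 1. STAT2, which acts in type I interferon signalling, rose by 4.12 (SE 0.07) and STAT3, the STAT of the interleukin-6 family, by 0.93 (SE 0.06) on the log2 scale. JAK2, a target of SOCS1, SOCS3 and PTPN1, rose by 2.74 (SE 0.09), against 5.72 for SOCS1 in the same libraries. By listed lengths, the level of SOCS1 per kilobase was 2.78 and 2.08 times that of JAK2 with SAMD9, against 0.281 and 0.328 times with empty vector. This ratio was not redone with transcript lengths, which lower the level of SOCS1.

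Of 20 receptor genes tested, 11 were higher and 1, EPOR, was lower (median 0.61), and EPOR was not called with DESeq2, without SAMD9 replicate 2 or without empty vector replicate 2. IL15RA rose by 3.83 (SE 0.14), IL22RA1 by 3.71 (SE 0.15), LIFR by 2.30 (SE 0.12) and OSMR by 1.01 (SE 0.06) on the log2 scale. IL6ST, the gp130 gene that SOCS3 acts on, rose by 0.36 (SE 0.06). By listed lengths, the level of SOCS3 per kilobase was 1.47 and 1.4 times that of IL6ST with SAMD9, against 0.214 and 0.256 times with empty vector. The receptor genes GHR and PRLR, which signal through STAT5, had 4 and 2, and 4 and 4 counts with SAMD9, and 4 and 6, and 0 and 0 counts with empty vector.

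Among 16 cytokine genes tested, 9 were higher and 2 lower (median 1.01). Of the interleukin-6 family, IL6 had 458 and 458 counts with SAMD9 and 4 and 2 counts with empty vector, and LIF rose by 1.05 (SE 0.06) on the log2 scale. The interferon genes IFNB1, IFNL1, IFNL2 and IFNL3 all rose, and IFNL2 and IFNL3 are close paralogs whose counts may be split. Counts assigned to GH1, which encodes a ligand of the STAT5 pathway, came to 82.4 ± 4.57 CPM with SAMD9 and 1810 ± 345 CPM with empty vector (SD, n = 2 each, log2 fold change -4.46). GH1 shares sequence with paralogs. Both groups received plasmid DNA, and whether the GH1 counts came from the cells' own gene was not tested. The GH1 call, 1 of the 2 lower calls, is therefore not read as a fall of the cells' own growth hormone RNA. The other gene called lower was IL11 (log2 fold change -0.32, SE 0.11). With DESeq2, or without SAMD9 replicate 1, SAMD9 replicate 2 or empty vector replicate 1, 1 gene of the list was lower.

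Of 8 genes tested for receptors and substrates that SOCS proteins bind outside the JAK pathway, 2 were higher and 3 lower (median -0.01). IGF1R fell by 0.44 (SE 0.06) and the insulin receptor substrate gene IRS1 by 0.40 (SE 0.07), whereas EGFR, which SOCS4 and SOCS5 are linked to, rose by 0.24 (SE 0.06) and MET by 0.21 (SE 0.06) on the log2 scale. IRS4 had 0 and 0 counts with SAMD9 and 18 and 18 counts with empty vector. With 3 counts over the SAMD9 group taken as a floor, it was 13.9-fold lower, a ratio that leaves out the counting error of the empty vector counts. The rises in EGFR and MET were lost under total-count scaling and without SAMD9 replicate 2. Genes known as STAT3 or STAT5 targets rose in 14 of 22 cases and fell in 4 (median 0.41), with IRF1 at 4.48 (SE 0.07), JUNB at 1.86 (SE 0.08), MCL1 at 1.28 (SE 0.06) and CEBPD at 1.71 (SE 0.09). The falls numbered 2 without SAMD9 replicate 2 and 7 under total-count scaling. JAK1, EPOR, IL11, MET and CUL5 were named after their values were seen. OSMR and IL4R are in both that list and the receptor list.

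**Figure D4:**
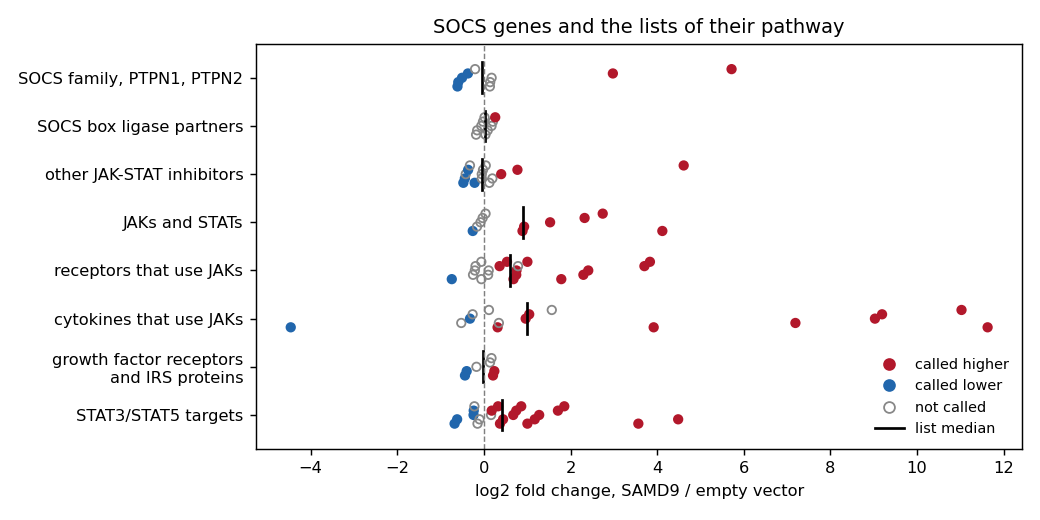
Log2 fold change, SAMD9 over empty vector, of the genes tested in each list; filled dots were called (red higher, blue lower), open dots were not, and black bars are list medians. IRS4, at 0 counts with SAMD9, is not drawn but enters its list's median. SOCS1 (5.72), USP18 (4.61) and SOCS3 (2.98) lie furthest right among the inhibitors, and the SOCS box ligase genes lie close to 0.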

How the data were processed

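Each deposited file gave raw counts per gene for 1 library, beside CPM and RPKM values that the authors computed from them. The deposited CPM and RPKM were not used. featureCounts 1.4.6-p5 (Subread), STAR 2.5.1a, bcl2fastq and the build GRCh38 are named in the submitters' processing notes. Not given in the sources used here were parameters, annotation release and strand setting.

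A gene name table gave symbols for 54836 of 58812 IDs, and GENCODE release 29 was used for transcripts. The test was the quasi-likelihood F-test of edgeR 4.0.16 (R 4.3.3), after filterByExpr (minimum count 10, minimum total 15) and TMM scaling (factors 0.932 to 1.07), with no covariate. Benjamini-Hochberg adjustment was over the 19814 genes tested. The SE is the absolute log2 fold change over the square root of F, and 95% intervals use the test's degrees of freedom. Replicates were compared before use, and the chi-square per degree of freedom was 5.00 between SAMD9 libraries and 9.35 between empty vector libraries, so neither pair was 1 library deposited again.

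Among counts from 1 to 20, 72.9% were even, against 49.7% above 1000, so counting intervals may be too narrow. Intervals on counts cover counting error only. The distance between profiles used log2(CPM + 0.5) and required an average log2 CPM of 1 or more. The text names all 10 genes, related antisense genes and pseudogenes, up to 4 called genes of each list with the lowest p and others that a sentence on the 10 genes needs. The members and lists were chosen with earlier results of these data known.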

Additional observations from a re-analysis of the deposited data

How the results depend on the processing

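The calls on SOCS1, SOCS3, SOCS4, SOCS5, SOCS6 and SOCS7, and the lack of a call on the other 4 genes, held under all 9 alternatives: total-count scaling, RLE size factors, DESeq2 1.42.0, no filter, a replicate block and leaving out each library. Without empty vector replicate 2 the CISH log2 fold change was 0.0021, and leaving out each library gave -0.37 to 0.0021. Under total-count scaling SOCS2 was at -0.050, PTPN1 at -0.043 and PTPN2 at -0.0095, 1974 genes were higher and 5653 lower, and the lists had 3 ligase genes, 7 other inhibitors, 2 JAKs or STATs, 3 receptors and 7 STAT targets lower, with 0 ligase genes and 0 growth factor receptors higher. Over all genes tested, against 3038 higher and 2420 lower, leaving out 1 library gave 1466 to 2279 lower genes, the lowest without SAMD9 replicate 2. With DESeq2, 0 receptors and 1 cytokine were lower. Leaving out 1 library gave 0 to 1 ligase genes higher and 0 to 1 lower, 2 to 5 other inhibitors, 0 to 1 JAKs or STATs, 0 to 1 receptors, 1 to 2 cytokines and 2 to 5 STAT targets lower, and 0 to 3 growth factor receptors higher. The cause of these changes was not tested. In these fits the lone library of a group is assumed to vary like the other group. Replicate numbers mark no shared batch in the labels, deviations of libraries with the same number correlated at r = 0.010 across genes, and with the replicate block 2914 genes were higher and 2330 lower. With transcript lengths from GENCODE, an alternative added after seeing the data, SOCS1 and SOCS3 made up 67.0% of the summed level with SAMD9 and 10.8% with empty vector, against 73.5% and 12.35% (means of 2 libraries) with the listed lengths. Counting error is largest where counts are low, as for SOCS1 with empty vector (34 and 44 counts) and CISH (78 to 133 counts).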
